A study of Mus musculus with 4 samples.

Results

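Toll-like receptors (TLRs) are the innate immune receptors with which neutrophils sense microbial molecules and molecules released by injured cells. The transcripts described here are those of 8 TLR genes, *Tlr1*, *Tlr2*, *Tlr4*, *Tlr6*, *Tlr7*, *Tlr8*, *Tlr9* and *Tlr13*, of the co-receptor gene *Cd14* and of the adaptor gene *Myd88*. These 10 genes were taken by their symbols from the 25655 genes of the processed RNA-Seq files. All 10 were among the 6523 genes whose mean over the 4 libraries was over 10 TPM (a transcript level normalised for gene length and for the total of the library), and the lowest mean among them was that of *Tlr9*, at 15.7 TPM.

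The libraries came from cardiac neutrophils of wild-type (WT) and *Cd300a-/-* mice on day 3 after myocardial infarction and reperfusion (MI/R), and the design asks how the loss of the inhibitory receptor CD300a and the SiglecF subset bear on the neutrophil transcriptome. CD45.2+CD11b+Ly6G+ cells were sorted into SiglecF hi and SiglecF lo neutrophils, which the labels call SiglecF-positive and SiglecF-negative. Each library held the cells of 8 pooled hearts, and there was 1 library for each of the 4 groups: WT SiglecF lo, *Cd300a-/-* SiglecF lo, WT SiglecF hi and *Cd300a-/-* SiglecF hi. The mice were males of 8 to 12 weeks. The methods of the study name purchased C57BL/6J mice and a *Cd300a-/-* line on the C57BL/6 background, and all groups had the left anterior descending artery occluded for 60 minutes before reperfusion. The *Cd300a* deletion was constitutive, so that other cells of the heart lacked the receptor too, and no library of uninjured hearts was analysed here. No group has a second library, so no difference could be checked against replicates and none was tested, and the intervals given below are 95% counting intervals, which cover counting error alone. The total of all gene counts was 9631901 for WT and 10988619 for *Cd300a-/-* SiglecF lo neutrophils, and 19278243 for WT and 17632989 for *Cd300a-/-* SiglecF hi neutrophils.

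The targeted gene *Cd300a* had 3024 and 6640 counts in the WT SiglecF lo and SiglecF hi libraries, and 28 and 27 counts in the *Cd300a-/-* SiglecF lo and SiglecF hi libraries. *Siglecf* had 11.3 TPM (WT) and 15.3 TPM (*Cd300a-/-*) in the SiglecF lo libraries, against 354 TPM (WT) and 405 TPM (*Cd300a-/-*) in the SiglecF hi libraries. Both genes followed the labels. All 9 defining neutrophil markers had counts in every library, and their summed level was 155316 TPM in the WT SiglecF lo, 203909 TPM in the *Cd300a-/-* SiglecF lo, 28414 TPM in the WT SiglecF hi and 33470 TPM in the *Cd300a-/-* SiglecF hi library, with *S100a9* the most abundant. The sorting marker gene *Ly6g* was far lower in the SiglecF hi libraries (11.1 TPM for WT, 41.9 TPM for *Cd300a-/-*) than in the SiglecF lo libraries (330.4 TPM for WT, 889 TPM for *Cd300a-/-*).

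Macrophages and monocytes also express TLR genes, and transcripts that mark them were present in every library. All 12 macrophage and monocyte markers had counts in each library, and their summed level was 3730.4 TPM in the WT SiglecF lo, 3370.0 TPM in the *Cd300a-/-* SiglecF lo, 9132 TPM in the WT SiglecF hi and 7917 TPM in the *Cd300a-/-* SiglecF hi library. The complement genes led this list, with *C1qa* the most abundant in *Cd300a-/-* SiglecF lo neutrophils at 755 TPM and *C1qb* in the other libraries at 839 TPM for WT SiglecF lo, 2257 TPM for WT SiglecF hi and 2036 TPM for *Cd300a-/-* SiglecF hi neutrophils. The list was thus higher in both SiglecF hi libraries, and its part in the differences between subsets was not tested. In bulk RNA, fewer cells of a type and less RNA per cell cannot be told apart.

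Markers of other cells were lower. The 7 dendritic cell markers summed to between 102.6 and 362 TPM, almost all of it from *Bst2*, and *Flt3* and *Xcr1* in WT SiglecF lo and *Clec9a* in *Cd300a-/-* SiglecF lo neutrophils had 0 counts. The 8 eosinophil markers summed to between 87.9 and 173 TPM, almost all from *Ear2*, and the defining eosinophil gene *Epx* had 0 counts in all 4 libraries. In both SiglecF lo libraries 5 of the 8 had 0 counts, *Epx*, *Prg2*, *Prg3*, *Ear1* and *Ear6*. The 6 T and NK cell markers, led by *Cd3d* or *Cd4*, summed to at most 7.29 TPM, and *Cd3e* had 0 counts in 3 of the 4 libraries. The 5 cardiomyocyte markers summed to between 24.2 and 50.5 TPM, led by *Myl2* or *Tnnt2*, and *Nppa* had 0 counts in 3 libraries.

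The 6 endothelial markers, led by *Pecam1*, summed to 139 TPM in the WT SiglecF lo, 50.7 TPM in the *Cd300a-/-* SiglecF lo, 77.4 TPM in the WT SiglecF hi and 99.1 TPM in the *Cd300a-/-* SiglecF hi library. The 5 fibroblast markers, led by *Dcn*, summed to 829 TPM, 769 TPM, 1765 TPM and 1211 TPM in the same order. The 7 markers of secondary granules and maturation, among which *Lcn2* or *Chil3* was the most abundant, summed to 5712 TPM in the WT SiglecF lo, 13297 TPM in the *Cd300a-/-* SiglecF lo, 949 TPM in the WT SiglecF hi and 1759.7 TPM in the *Cd300a-/-* SiglecF hi library. All genes of these 3 lists had counts in every library. The summed granule markers were thus higher without CD300a in both subsets, the endothelial sum was lower in the SiglecF lo subset and the fibroblast sum was lower in the SiglecF hi subset, and the part of these lists in the genotype differences was not tested.

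As background, TLRs at the cell surface bind lipopeptides and lipopolysaccharide, whereas TLRs in endosomes bind nucleic acids, and nearly all of them recruit the adaptor MyD88, which assembles IRAK kinases and TRAF6 and leads to NF-κB and AP-1 activity and to cytokine transcription. CD14 hands lipopolysaccharide to TLR4 and also serves TLR2 and endosomal TLRs. After myocardial ischaemia the same receptors meet molecules from dying cells, such as S100A8 and S100A9, HMGB1 and mitochondrial DNA.

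The 10 transcripts covered a wide range of levels. *Cd14* was the most abundant in all 4 libraries, followed in every library by *Tlr2*, then by *Tlr13* and *Myd88* with *Tlr13* ahead in 3 libraries and *Myd88* ahead in *Cd300a-/-* SiglecF hi neutrophils. *Tlr9* was the lowest in all 4 libraries. The 8 TLR genes summed to 830.3 TPM in the WT SiglecF lo, 977 TPM in the *Cd300a-/-* SiglecF lo, 769 TPM in the WT SiglecF hi and 818 TPM in the *Cd300a-/-* SiglecF hi library.

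Among the surface receptors, *Cd14*, the co-receptor gene, was at 4015 TPM in the WT SiglecF lo, 4471 TPM in the *Cd300a-/-* SiglecF lo, 3034 TPM in the WT SiglecF hi and 3717 TPM in the *Cd300a-/-* SiglecF hi library, with between 33854 and 47912 counts. It ranked 22nd of all genes in both SiglecF lo libraries, 37th in WT SiglecF hi and 27th in *Cd300a-/-* SiglecF hi neutrophils. *Tlr4*, the lipopolysaccharide receptor, was at 33.4 TPM in the WT SiglecF lo, 40.3 TPM in the *Cd300a-/-* SiglecF lo, 36.5 TPM in the WT SiglecF hi and 40.1 TPM in the *Cd300a-/-* SiglecF hi library. Both genes were higher in the *Cd300a-/-* than in the WT library of each subset. The 4 counting intervals were separate for *Cd14*, whereas for *Tlr4* those of the *Cd300a-/-* libraries overlapped each other and the one of WT SiglecF hi neutrophils.

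*Tlr2*, whose product binds lipopeptides in pairs with TLR1 or TLR6, was at 431 TPM in the WT SiglecF lo, 487 TPM in the *Cd300a-/-* SiglecF lo, 302 TPM in the WT SiglecF hi and 369.6 TPM in the *Cd300a-/-* SiglecF hi library. It gave the largest part of the summed TLR level in each library, 51.9%, 49.9%, 39.3% and 45.2% in the same order. Its 2 partners were far less abundant. *Tlr1*, which pairs with TLR2 for triacylated lipopeptides, was at 20.2 TPM in the WT SiglecF lo, 39.5 TPM in the *Cd300a-/-* SiglecF lo, 23.9 TPM in the WT SiglecF hi and 23.3 TPM in the *Cd300a-/-* SiglecF hi library (324, 699, 655 and 572 counts). *Tlr6*, which pairs with TLR2 for diacylated lipopeptides, was at 32.2 TPM in the WT SiglecF lo, 44.2 TPM in the *Cd300a-/-* SiglecF lo, 34.7 TPM in the WT SiglecF hi and 34.3 TPM in the *Cd300a-/-* SiglecF hi library. For both partners the *Cd300a-/-* SiglecF lo library stood above the others, whose counting intervals overlapped. *Tlr2* followed another order, with both SiglecF lo libraries above both SiglecF hi libraries and all intervals separate.

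Among the endosomal receptors, *Tlr13*, the receptor for bacterial ribosomal RNA, was at 259 TPM in the WT SiglecF lo, 291 TPM in the *Cd300a-/-* SiglecF lo, 247 TPM in the WT SiglecF hi and 245 TPM in the *Cd300a-/-* SiglecF hi library. It made up between 29.8% and 32.1% of the summed TLR level and was the second TLR transcript after *Tlr2*. *Tlr7*, a receptor for single-stranded RNA, was at 26.5 TPM in the WT SiglecF lo, 30.0 TPM in the *Cd300a-/-* SiglecF lo, 64.0 TPM in the WT SiglecF hi and 51.0 TPM in the *Cd300a-/-* SiglecF hi library, and its part of the summed TLR level was 3.19%, 3.08%, 8.32% and 6.23% in the same order. Both SiglecF hi libraries lay above both SiglecF lo libraries.

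*Tlr8*, the neighbour of *Tlr7* on the X chromosome and also a receptor for RNA, was at 16.0 TPM in WT SiglecF lo (14.2 to 17.9), 34.7 TPM in *Cd300a-/-* SiglecF lo (32.2 to 37.4), 39.3 TPM in WT SiglecF hi (37.1 to 41.6) and 35.7 TPM in *Cd300a-/-* SiglecF hi neutrophils (33.5 to 38.0). The WT SiglecF lo library was thus the low one, with 285 counts, and the intervals of the *Cd300a-/-* libraries overlapped each other and that of WT SiglecF hi neutrophils. *Tlr9*, the receptor for DNA with unmethylated CpG, was at 12.5 TPM in the WT SiglecF lo, 9.59 TPM in the *Cd300a-/-* SiglecF lo, 21.4 TPM in the WT SiglecF hi and 19.2 TPM in the *Cd300a-/-* SiglecF hi library, with 224, 189, 652 and 524 counts. Its SiglecF hi libraries were above its SiglecF lo libraries, and within each subset the intervals of the genotypes overlapped.

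*Myd88* was at 214 TPM in the WT SiglecF lo, 266 TPM in the *Cd300a-/-* SiglecF lo, 234 TPM in the WT SiglecF hi and 305 TPM in the *Cd300a-/-* SiglecF hi library. Its *Cd300a-/-* libraries were above its WT libraries, with 4 separate counting intervals.

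**Figure D1:**
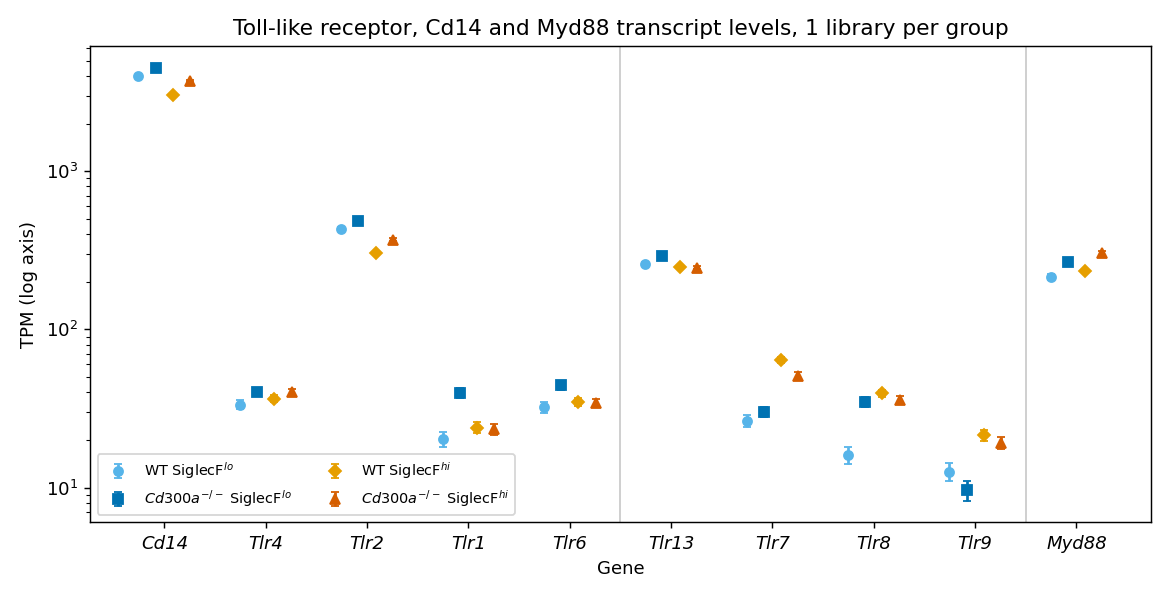
TPM of each gene (log axis) in the 4 libraries, with surface receptors on the left, endosomal receptors in the middle and *Myd88* on the right; each point is 1 library and bars are 95% counting intervals. *Cd14* lies between 3034 and 4471 TPM, *Tlr1* is highest in *Cd300a-/-* SiglecF lo neutrophils at 39.5 TPM, and *Tlr8* is lowest in WT SiglecF lo neutrophils at 16.0 TPM.

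Differences between libraries are given as centred log2 ratios, which are log2((TPM + 1) ratio) less the median of that ratio over the 6523 genes tested. The pseudocount of 1 TPM makes them understate the change of the lowest genes. A gene was called higher or lower where its centred log2 ratio was past 0.5 in either direction, and the median of all genes is 0 by construction. The median before centring was −0.02 and 0.04 between genotypes in the SiglecF lo and SiglecF hi subsets, but 0.53 (WT) and 0.61 (*Cd300a-/-*) between SiglecF hi and SiglecF lo neutrophils, so that the subset comparisons depend on the centring.

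In SiglecF lo neutrophils, 2 of the 10 genes were higher without CD300a and 0 were lower, while 17.2% of the 6523 genes tested were higher and 19.1% were lower. The 2 genes were *Tlr8*, with a centred log2 ratio of 1.09 (0.90 to 1.28), and *Tlr1*, with 0.95 (0.77 to 1.14). The share of members called higher was near that of all genes. The centred log2 ratio was 0.46 (0.32 to 0.61) for *Tlr6*, 0.33 for *Myd88*, 0.28 for *Tlr4*, 0.19 for *Tlr2*, *Tlr7* and *Tlr13* and 0.17 for *Cd14*, and −0.34 (−0.60 to −0.08) for *Tlr9*. Thus 9 of the 10 values were above 0, with a median of 0.24. The same libraries differed in the endothelial and granule markers given above, and the median centred log2 ratio was −1.44 over the 4 endothelial markers tested and 1.38 over the 7 granule markers, of which 5 were higher. The defining neutrophil markers were above 0 as well, all 9 of them, with 4 called higher and a median of 0.45, and of the 12 macrophage and monocyte markers 1 was higher and 2 were lower, with a median of −0.13. *Bst2*, at −1.23, and *Ear2*, at −0.97, were the only dendritic cell and eosinophil markers tested. The part of these lists in the values was not tested.

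In SiglecF hi neutrophils, 0 of the 10 genes were higher and 0 were lower in *Cd300a-/-* mice, where 2.64% of all genes tested were higher and 4.09% were lower. The largest positive centred log2 ratios were those of *Myd88*, 0.34 (0.28 to 0.40), *Cd14*, 0.25 (0.24 to 0.27), and *Tlr2*, 0.25 (0.21 to 0.30). The 4 endosomal receptors lay below 0, at −0.36 (−0.45 to −0.27) for *Tlr7*, −0.19 for *Tlr9*, −0.17 for *Tlr8* and −0.05 for *Tlr13*. *Tlr4* was at 0.09, *Tlr6* at −0.06 and *Tlr1* at −0.07, each with an interval that held 0. The median over the 10 genes was −0.05. These libraries differed in the granule markers too, of which 6 of 7 were higher without CD300a, with a median centred log2 ratio of 1.66, and 3 of the 4 fibroblast markers tested were lower, with a median of −0.69. Of the 12 macrophage and monocyte markers 11 were below 0 and 1 was called lower, with a median of −0.25. Of the 9 defining neutrophil markers 8 were above 0 and 2 were called higher, *Ly6g* at 1.78 and *Retnlg* at 1.17. In addition, 1 of the 4 endothelial and 1 of the 3 cardiomyocyte markers tested were higher, with medians of 0.39 and 0.37. The part of these lists in the values was not tested.

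The genotype values were then set against each other between the subsets, as the centred log2 ratio in SiglecF lo less that in SiglecF hi neutrophils, with an interval from all 4 counts and no test. This difference was 1.26 (1.04 to 1.49) for *Tlr8*, 1.02 (0.78 to 1.27) for *Tlr1*, 0.55 (0.37 to 0.74) for *Tlr7* and 0.52 (0.33 to 0.71) for *Tlr6*. It was smaller for *Tlr13*, at 0.23, and for *Tlr4*, at 0.19. For *Myd88*, *Tlr2*, *Cd14* and *Tlr9* it was −0.01 (−0.11 to 0.09), −0.06 (−0.12 to 0.00), −0.08 (−0.11 to −0.06) and −0.15 (−0.46 to 0.15). *Myd88*, *Cd14* and *Tlr2* thus had positive genotype values in both subsets, all under 0.5, whereas *Tlr7*, *Tlr8* and *Tlr13* had values of opposite sign with both intervals off 0. The latter held for 15.3% of all genes tested.

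Between the subsets of WT mice, 2 genes were higher in SiglecF hi neutrophils, where 19.3% of all genes tested were higher, and 3 were lower, where 20.9% of all genes were lower. The centred log2 ratio was 0.72 for both *Tlr8* (0.55 to 0.90) and *Tlr7* (0.58 to 0.85), and it was −1.04 (−1.09 to −0.99) for *Tlr2*, −0.93 (−0.95 to −0.91) for *Cd14* and −0.59 (−0.64 to −0.54) for *Tlr13*. *Tlr6* was at −0.42, *Tlr4* and *Myd88* at −0.40, *Tlr1* at −0.29 and *Tlr9* at 0.20. The median was −0.40. Without centring, *Tlr1*, *Tlr4*, *Tlr6* and *Myd88* had values above 0, and *Cd14*, at −0.40, and *Tlr13*, at −0.07, were not called lower. *Tlr2* remained called lower, at −0.51, *Tlr7* and *Tlr8* were higher at 1.24 and 1.25, and *Tlr9* was called higher at 0.72. Of all genes tested, 51.9% were higher and 7.47% were lower without centring, so that 3 higher of 10 is under the share of all genes.

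Between the subsets of *Cd300a-/-* mice, 7 genes were lower in SiglecF hi neutrophils, where 23.6% of all genes tested were lower, and 0 were higher, where 21.2% of all genes were higher. These comprised all 5 surface receptor genes, *Tlr1* at −1.35 (−1.50 to −1.19), *Tlr2* at −1.01 (−1.05 to −0.97), *Tlr6* at −0.97 (−1.10 to −0.84), *Cd14* at −0.88 (−0.90 to −0.86) and *Tlr4* at −0.62 (−0.73 to −0.52), and the endosomal receptors *Tlr13* at −0.86 (−0.91 to −0.81) and *Tlr8* at −0.58 (−0.71 to −0.44). *Myd88* was at −0.42, *Tlr7* at 0.13 and *Tlr9* at 0.32, and the median was −0.74. Without centring *Tlr1* alone was called lower, at −0.74, *Tlr7* and *Tlr9* were called higher, at 0.74 and 0.93, and the values of *Tlr8* and *Myd88* turned positive, at 0.04 and 0.20. Here 56.6% of all genes were higher and 7.97% were lower without centring. TMM scaling of the counts gave the same calls as the centred ratio for all 10 genes in all 4 comparisons. It too removes most of the shift of all genes, whose median between subsets became 0.00 (WT) and 0.05 (*Cd300a-/-*). Its calls therefore do not check the centring. The subset comparisons share their libraries with the genotype comparisons, so that a low *Tlr8* value in WT SiglecF lo neutrophils enters both.

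Several marker lists moved with the subset comparisons. Of the 12 macrophage and monocyte markers, 9 were higher and 1 was lower in SiglecF hi neutrophils of WT mice, with a median centred log2 ratio of 0.77, and in *Cd300a-/-* mice 6 were higher and 1 was lower, with a median of 0.46. Of the 9 defining neutrophil markers, 8 in WT and 9 in *Cd300a-/-* mice were lower in SiglecF hi neutrophils. All 7 granule markers were lower there in both genotypes, with a median of −3.82 in WT and −4.01 in *Cd300a-/-* mice. In WT mice all 4 endothelial markers tested were lower (median −1.30), 2 of 3 cardiomyocyte markers were lower (median −0.75) and 2 of 4 fibroblast markers were higher (median 0.54). In *Cd300a-/-* mice 1 of the 4 endothelial markers was higher (median 0.17), 1 of the 3 cardiomyocyte markers was higher (median 0.11) and 0 of the 4 fibroblast markers were past 0.5 (median −0.05). Without centring, 5 neutrophil, 6 granule, 4 endothelial and 0 cardiomyocyte markers were lower in SiglecF hi neutrophils of WT mice, and 9 macrophage and monocyte, 4 fibroblast and 1 of the cardiomyocyte markers were higher. For *Cd300a-/-* mice these were 7 neutrophil and 6 granule markers lower, and 11 macrophage and monocyte, 3 endothelial, 2 cardiomyocyte and 2 fibroblast markers higher. The eosinophil marker *Ear2* was at −1.16 in WT and −0.22 in *Cd300a-/-* mice with centring, and at −0.63 and 0.39 without it. The dendritic cell marker *Bst2* was at 0.08 and 1.15 with centring, and at 0.61 and 1.76 without it. *Ear2* was the only 1 tested of 8 eosinophil markers and *Bst2* of 7 dendritic cell markers, so neither value stands for its cell type. The part of these lists in the values of the members was not tested.

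**Figure D2:**
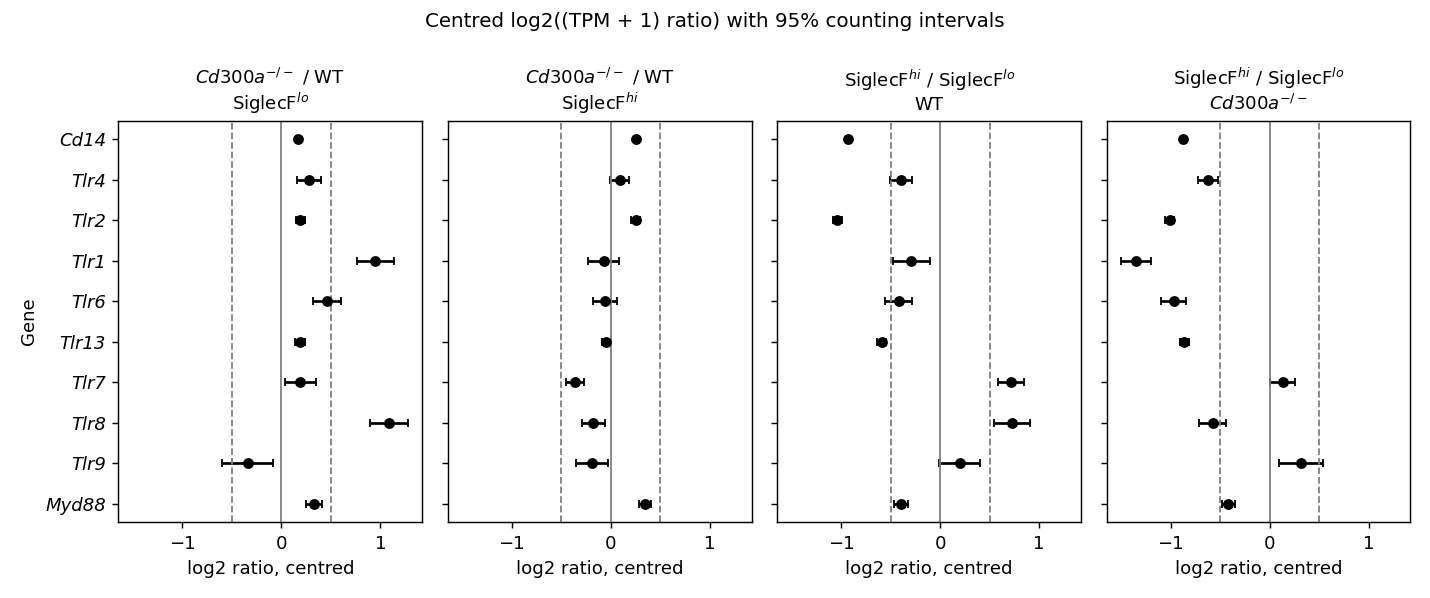
Centred log2((TPM + 1) ratio) of each gene in the 4 comparisons, each between 2 libraries; bars are 95% counting intervals, the solid line marks 0 and dashed lines mark 0.5 in either direction. In SiglecF lo neutrophils *Tlr8* and *Tlr1* lie right of the dashed line at 1.09 and 0.95; the surface receptors lie left of 0 in both subset comparisons, where *Tlr1*, *Tlr4* and *Tlr6* of WT mice have values above 0 without centring.

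Because the receptors act in pairs and complexes, the ratio of TPM levels within a library is also given. *Tlr2* exceeded the sum of its partners *Tlr1* and *Tlr6* by a ratio of 8.23 (7.69 to 8.81) in WT SiglecF lo, 5.82 (5.52 to 6.14) in *Cd300a-/-* SiglecF lo, 5.15 (4.89 to 5.42) in WT SiglecF hi and 6.42 (6.08 to 6.77) in *Cd300a-/-* SiglecF hi neutrophils. The excess of *Tlr2* was thus greatest in WT SiglecF lo neutrophils. The ratio of *Tlr8* to its neighbour *Tlr7* was 0.60 for WT and 1.16 for *Cd300a-/-* SiglecF lo neutrophils, and 0.61 for WT and 0.70 for *Cd300a-/-* SiglecF hi neutrophils. *Tlr8* therefore exceeded *Tlr7* in 1 library, where the interval of the ratio was 1.04 to 1.29. The ratio of *Cd14* to *Tlr4* was 120.4 for WT and 111 for *Cd300a-/-* SiglecF lo neutrophils, and 83.1 for WT and 92.8 for *Cd300a-/-* SiglecF hi neutrophils, higher in the SiglecF lo library of each genotype. These ratios compare libraries of their own and do not depend on the centring.

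The other TLR genes of the mouse were scarce. None of *Tlr3*, *Tlr5*, *Tlr11* and *Tlr12* reached a mean of 10 TPM, and none was tested. *Tlr5*, the flagellin receptor, was at 8.10 TPM in the WT SiglecF lo, 8.84 TPM in the *Cd300a-/-* SiglecF lo, 6.06 TPM in the WT SiglecF hi and 7.60 TPM in the *Cd300a-/-* SiglecF hi library. *Tlr3*, the receptor for double-stranded RNA, which signals through TRIF rather than MyD88, ran from 1.19 TPM in WT SiglecF lo to 7.05 TPM in *Cd300a-/-* SiglecF hi neutrophils. *Tlr11* had 0 counts in both WT libraries, and *Tlr12* had 0 counts in 3 libraries and 7 counts in *Cd300a-/-* SiglecF hi neutrophils.

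Of the 5 genes for co-receptors and ligand transfer, 4 were tested, and *Lbp* was not. *Ly96* encodes the protein that holds lipopolysaccharide in the TLR4 complex, and it was at 61.0 TPM in the WT SiglecF lo, 20.1 TPM in the *Cd300a-/-* SiglecF lo, 31.0 TPM in the WT SiglecF hi and 35.7 TPM in the *Cd300a-/-* SiglecF hi library, from 198, 72, 172 and 177 counts. The WT SiglecF lo library was high and the *Cd300a-/-* SiglecF lo library low. Accordingly the ratio of *Tlr4* to *Ly96* was 0.55 (0.47 to 0.64) and 2.01 (1.58 to 2.55) in these 2 libraries, and 1.18 and 1.12 in the WT and *Cd300a-/-* SiglecF hi libraries. Without CD300a, 2 of the 4 genes were lower in SiglecF lo neutrophils, *Ly96* at a centred log2 ratio of −1.54 (−1.93 to −1.16) and *Ly86*, the partner of CD180 and the most abundant of the list, at −0.52 (−0.65 to −0.40), and in SiglecF hi neutrophils 0 were past 0.5. Of all genes tested, 19.1% were lower in the SiglecF lo and 4.09% in the SiglecF hi subset. Between subsets, *Cd180*, a TLR-like receptor, and *Cd36*, a scavenger receptor that serves TLR2, were higher in SiglecF hi neutrophils of WT mice, at 1.13 and 0.75, and of *Cd300a-/-* mice, at 0.74 and 0.59. *Ly96* was lower there in WT mice, at −1.48, and at 0.18 in *Cd300a-/-* mice. In all, 2 of the 4 were higher and 1 lower in WT mice, and 2 and 0 in *Cd300a-/-* mice. Without centring these counts were 3 and 1 in WT mice, and 4 and 0 in *Cd300a-/-* mice, where *Ly96* was thus called higher. Of all genes tested, 19.3% (WT) and 21.2% (*Cd300a-/-*) were higher, and 51.9% and 56.6% without centring. The shares of all genes that were lower were 20.9% and 23.6%, and 7.47% and 7.97% without centring.

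All 12 genes that serve the trafficking and processing of endosomal TLRs were tested. The chaperone *Unc93b1*, which carries these receptors to endosomes, was at 322 TPM in the WT SiglecF lo, 343 TPM in the *Cd300a-/-* SiglecF lo, 513 TPM in the WT SiglecF hi and 539 TPM in the *Cd300a-/-* SiglecF hi library, and its centred log2 ratio was at most 0.14 in the 4 comparisons, while between subsets it was 0.67 in WT and 0.65 in *Cd300a-/-* mice without centring. Between genotypes 1 gene was higher in *Cd300a-/-* SiglecF lo neutrophils, the endolysosomal transporter gene *Slc15a3* at 0.56, and 3 were lower, the protease genes *Ctss*, the most abundant of the list, at −0.76 and *Ctsk* at −0.61 (−1.13 to −0.10), from 59 and 39 counts and below 10 TPM in both libraries, and the lysosomal nuclease gene *Pld3* at −0.52. In SiglecF hi neutrophils 0 of the 12 were past 0.5. The shares of all genes were 17.2% higher and 19.1% lower in the SiglecF lo subset, and 2.64% and 4.09% in the SiglecF hi subset. In SiglecF hi against SiglecF lo neutrophils of WT mice 5 were higher, *Pld3* at 1.53, *Ctsb* at 1.21, *Ctsk* at 1.01, *Lgmn* at 0.80 and *Ctsl* at 0.58, and *Slc15a3* was lower at −0.94. In *Cd300a-/-* mice 6 were higher, led by *Pld3* at 1.77, *Ctsk* at 1.31 and *Ctsb* at 1.05, and *Slc15a3* was lower at −1.25. Without centring *Slc15a3* was at −0.41 in WT mice, no longer called, and at −0.64 in *Cd300a-/-* mice. Centred, *Ctss* was at 0.45 in WT mice, not past 0.5, and at 0.91 in *Cd300a-/-* mice. Without centring, 11 of the 12 genes were higher in each genotype. Of all genes tested, 51.9% (WT) and 56.6% (*Cd300a-/-*) were then higher, against 19.3% and 21.2% with centring. The shares of all genes that were lower were 7.47% and 7.97% without centring, against 20.9% and 23.6% with it. Macrophage markers also differed between the subsets, and their part in these values was not tested.

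Of the 21 genes for other adaptors and proximal kinases, 15 were tested. In SiglecF lo neutrophils 5 were higher and 0 lower in the *Cd300a-/-* than in the WT library, with a median centred log2 ratio of 0.43. Of all genes tested, 17.2% were higher and 19.1% were lower. The 5 were the kinase gene *Tbk1* at 0.71 (0.57 to 0.86), the ubiquitin ligase genes *Traf3* at 0.70 (0.53 to 0.88) and *Traf6* at 0.51 (0.31 to 0.71), *Pik3ap1*, an adaptor that links TLRs to PI3K and the most abundant of the list, at 0.55 (0.49 to 0.60), and *Ikbkb* at 0.50 (0.34 to 0.67). Of these, *Traf6* and *Ikbkb* have intervals that reach well under 0.5, and both were at 0.49 without centring, which leaves 3 called. In SiglecF hi neutrophils 1 gene was higher, the kinase gene *Ikbke* at 0.61 (0.49 to 0.73), and the median was 0.18. Of all genes tested, 2.64% were higher there. Between subsets, the adaptor gene *Tirap*, which brings MyD88 to TLR2 and TLR4, was lower in SiglecF hi neutrophils, at −1.50 in WT and −1.69 in *Cd300a-/-* mice, from 26.6 and 31.1 TPM in the SiglecF lo libraries to 13.0 and 14.3 TPM in the SiglecF hi libraries. It was lower without centring too, at −0.98 and −1.07. The kinase gene *Irak4*, the first to bind MyD88, was also lower, at −0.63 in WT and −0.76 in *Cd300a-/-* mice, but at −0.10 and −0.14 without centring. *Ikbke* was higher, at 0.94 and 1.12. In *Cd300a-/-* mice *Irak1* was higher at 0.63 and *Tbk1* lower at −0.56 as well, and without centring *Tbk1* was at 0.05. In all, 1 of the 15 genes was higher and 2 were lower in WT mice (8 and 1 without centring), and 2 were higher and 3 lower in *Cd300a-/-* mice (7 and 1 without centring). The shares of all genes in WT mice were 19.3% higher and 20.9% lower (51.9% and 7.47% without centring). For *Cd300a-/-* mice they were 21.2% higher and 23.6% lower (56.6% and 7.97% without centring).

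Of the 9 negative regulators, 7 were tested, and the largest value was that of *Irak3*, which encodes IRAK-M, an inhibitory member of the IRAK family. It was at 36.4 TPM in the WT SiglecF lo, 82.2 TPM in the *Cd300a-/-* SiglecF lo, 58.5 TPM in the WT SiglecF hi and 60.4 TPM in the *Cd300a-/-* SiglecF hi library. The *Cd300a-/-* SiglecF lo library was thus the highest, as for *Tlr1* and *Tlr6*. *Irak3*, at a centred log2 ratio of 1.17 (1.04 to 1.30), and *Tollip*, at 0.54 (0.41 to 0.68), were higher in *Cd300a-/-* SiglecF lo neutrophils, and in SiglecF hi neutrophils 0 of the 7 were past 0.5. Of all genes tested, 17.2% were higher in the SiglecF lo and 2.64% in the SiglecF hi subset. *Tnfaip3*, which encodes the ubiquitin-editing enzyme A20 and was the most abundant of the list, was higher in SiglecF hi neutrophils, at 1.00 in WT and 1.09 in *Cd300a-/-* mice. *Irak3* was lower there in *Cd300a-/-* mice, at −1.05, and at −0.44 without centring. Of the 5 interferon regulatory factors, all tested and led by *Irf7*, 0 were past 0.5 except *Irf3*, which was higher in SiglecF hi neutrophils of WT mice at 0.50 (0.31 to 0.70). Without centring the subset comparisons had 5 of the 7 negative regulators and 2 of the 5 interferon regulatory factors higher in WT mice, and 4 of each higher in *Cd300a-/-* mice, so that the low counts of calls rest on the centring. Of all genes tested, 51.9% (WT) and 56.6% (*Cd300a-/-*) were higher without centring, and 19.3% and 21.2% with it. The shares of all genes that were lower were 7.47% and 7.97% without centring, and 20.9% and 23.6% with it.

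Of 18 genes that TLRs induce early, 17 were tested, and the one with the highest level was *Il1b*, at 9239 TPM in the WT SiglecF lo, 6637 TPM in the *Cd300a-/-* SiglecF lo, 9987 TPM in the WT SiglecF hi and 12137 TPM in the *Cd300a-/-* SiglecF hi library. Many signals other than TLR ligands also induce these genes. In SiglecF lo neutrophils of *Cd300a-/-* against WT mice, 19.1% of all genes tested were lower and 17.2% were higher. Among the 17 genes, 5 were lower and 0 were higher, with a median centred log2 ratio of −0.17. These were the cytokine gene *Il6* at −1.84 (−2.06 to −1.63), the chemokine genes *Cxcl1* at −1.21 (−1.34 to −1.09), *Ccl3* at −0.56 and *Ccl4* at −0.56, and *Nfkbia*, the gene of an NF-κB inhibitor, at −0.51. In SiglecF hi neutrophils *Il1a* was higher at 0.63 and *Cxcl1* lower at −0.60, and the median was 0.15. In that subset 2.64% of all genes tested were higher and 4.09% were lower. Between subsets 4 genes were higher and 3 lower in SiglecF hi neutrophils of WT mice, led by *Il1a* at 1.47, *Icam1* at 1.45, *Tnf* at 1.44 and *Acod1* at −1.21. In *Cd300a-/-* mice 10 were higher and 2 lower, led by *Tnf* at 1.70, *Il1a* at 1.68, *Icam1* at 1.60 and *Ccl3* at 1.43. Without centring 13 genes were higher and 1 was lower in WT mice, and 15 were higher and 0 lower in *Cd300a-/-* mice. The shares of all genes in WT mice were 19.3% higher and 20.9% lower (51.9% and 7.47% without centring). For *Cd300a-/-* mice they were 21.2% higher and 23.6% lower (56.6% and 7.97% without centring).

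Endogenous TLR ligands were counted last, and 8 of 9 such genes were tested. *S100a9* and *S100a8*, whose products bind TLR4, were the most abundant, and *S100a9* was at 76228 TPM in the WT SiglecF lo, 89228 TPM in the *Cd300a-/-* SiglecF lo, 13719 TPM in the WT SiglecF hi and 15355 TPM in the *Cd300a-/-* SiglecF hi library. Both were lower in SiglecF hi neutrophils, *S100a8* at a centred log2 ratio of −3.10 in WT and −3.36 in *Cd300a-/-* mice, and *S100a9* at −3.00 and −3.15. *Tnc*, which encodes the matrix protein tenascin C, a ligand of TLR4, was at 4.48 TPM in the WT SiglecF lo, 24.4 TPM in the *Cd300a-/-* SiglecF lo, 17.7 TPM in the WT SiglecF hi and 8.55 TPM in the *Cd300a-/-* SiglecF hi library. Its genotype value was 2.23 (2.03 to 2.42) in the SiglecF lo and −1.00 (−1.14 to −0.87) in the SiglecF hi subset, and its subset value was 1.24 in WT and −2.02 in *Cd300a-/-* mice. The heat shock protein genes *Hspd1*, at −0.87, and *Hspa1a*, at −0.62, were lower in *Cd300a-/-* SiglecF lo neutrophils. Between genotypes, 1 of the 8 was higher and 2 were lower in the SiglecF lo subset, and 0 and 1 in the SiglecF hi subset. The shares of all genes were 17.2% higher and 19.1% lower in the SiglecF lo subset, and 2.64% and 4.09% in the SiglecF hi subset. Between subsets, *Hspa1a* was lower in SiglecF hi neutrophils of WT mice at −0.62, but at −0.10 without centring, and *Hspd1* was higher in those of *Cd300a-/-* mice at 0.67. In all, 1 of the 8 was higher and 3 were lower there in each genotype. Without centring 4 were higher and 2 lower in WT mice, and 2 higher and 3 lower in *Cd300a-/-* mice. Of all genes tested, 19.3% (WT) and 21.2% (*Cd300a-/-*) were higher, and 51.9% and 56.6% without centring. The shares of all genes that were lower were 20.9% and 23.6%, and 7.47% and 7.97% without centring.

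The genes lie on 5 autosomes and the X chromosome, and positions are those of the files, whose build the submitters' processing notes give as GRCm39. On chromosome 5, *Tlr1* (ENSMUSG00000044827, chr5:65082022-65090906) and *Tlr6* (ENSMUSG00000051498, chr5:65109374-65117440) lie on the minus strand, with 18467 bases and 0 genes of the files between them. On the X chromosome, *Tlr8* (ENSMUSG00000040522, chrX:166025692-166047325) and *Tlr7* (ENSMUSG00000044583, chrX:166087925-166113554) lie on the minus strand with 40599 bases and 0 genes between them. *Tlr13* (ENSMUSG00000033777) lies on the plus strand at chrX:105186810-105204099, *Tlr2* (ENSMUSG00000027995) on the minus strand at chr3:83743579-83749074 and *Tlr4* (ENSMUSG00000039005) on the plus strand at chr4:66745821-66848521. *Tlr9* (ENSMUSG00000045322) is on the plus strand at chr9:106099797-106104082, *Myd88* (ENSMUSG00000032508) on the minus strand at chr9:119165000-119170477 and *Cd14* (ENSMUSG00000051439) on the minus strand of chromosome 18.

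The neighbours *Tlr1* and *Tlr6* are alike in sequence as well. Of the runs of 36 bases in the GENCODE M21 transcripts of each gene, 18.8% of those of *Tlr1* and 15.4% of those of *Tlr6* also occur in another gene, and 562 runs are common to the pair. For *Tlr4* this share was 0.342%, and for the other 7 genes it was 0. Reads from the common stretches could have been counted for either gene, and the values of *Tlr1* and *Tlr6* apart are uncertain to that extent. Because TPM divides by gene length, their summed level is not free of this split either, and it was 52.4 TPM in the WT SiglecF lo, 83.7 TPM in the *Cd300a-/-* SiglecF lo, 58.6 TPM in the WT SiglecF hi and 57.6 TPM in the *Cd300a-/-* SiglecF hi library. The centred log2 ratio of the sum between genotypes was 0.68 in the SiglecF lo and −0.06 in the SiglecF hi subset.

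*Myd88* is the one member that overlaps other genes of the files. It shares 1736 bases with *Acaa1a*, a gene on the opposite strand, and it lies within the span of *Slc22a14*, which had 0 counts in all 4 libraries. Whether the counting used the strand is not given in the sources used here, and without it reads from the common bases of *Myd88* and *Acaa1a* cannot be told apart. *Acaa1a* was at 79.4 TPM in the WT SiglecF lo, 78.5 TPM in the *Cd300a-/-* SiglecF lo, 96.3 TPM in the WT SiglecF hi and 91.8 TPM in the *Cd300a-/-* SiglecF hi library. Its genotype values were 0.00 and −0.11, against 0.33 and 0.34 for *Myd88*.

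The genes whose pattern over the 4 libraries lay closest to each member were found by the Euclidean distance of log2(TPM + 1), centred on the gene's own mean, among 6513 other genes. With 4 libraries many genes lie close, between 333 genes within a distance of 0.5 for *Tlr1* and 2157 for *Tlr9*. The closest were *Pde1b* and *Tle3* to *Tlr1*, *Siglece* and *Map2k3* to *Tlr2*, *Ifngr2* and *Otud5* to *Tlr4*, *Ctnnbip1* and *Plk2* to *Tlr6* and *Il13ra1* and *Hcls1* to *Cd14*. They were *Nqo2* and *Thoc5* for *Tlr7*, *Reps1* and *Slc30a9* for *Tlr8*, *Tifab* and *Mmp14* for *Tlr9*, *Arf5* and *Akna* for *Tlr13* and *Prpf18* and *Zbtb11* for *Myd88*. *Pde1b*, at a distance of 0.07 from *Tlr1*, was at 12.6 TPM in the WT SiglecF lo, 25.2 TPM in the *Cd300a-/-* SiglecF lo, 15.3 TPM in the WT SiglecF hi and 14.0 TPM in the *Cd300a-/-* SiglecF hi library. *Siglece*, at 0.04 from *Tlr2*, was at 253 TPM, 284 TPM, 178 TPM and 211 TPM in the same order.

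Promoters were read for receptors called in the same direction in a comparison. The RefSeq table of promoters on GRCm38.p6, each from 250 bases before to 50 bases after a gene's start, held 9 promoters of 7 members, and *Tlr4*, *Tlr7* and *Cd14* were not matched. They were searched on both strands for the NF-κB motif, the core motif of PU.1 (GAGGAA), a factor of myeloid cells, and the AP-1 motif (TGANTCA). A match describes letters and is not evidence of binding. The PU.1 core was in 4 of the 9 promoters, those of *Tlr8*, *Tlr9* and *Tlr13* and 1 of the 2 of *Tlr1*, and in 28.3% of the 32851 promoters of the table. The NF-κB motif was in 1 of the 9, that of *Tlr2*, and in 8.46% of all promoters, and the AP-1 motif was in that of *Tlr9* and in 7.81% of all.

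*Tlr1* and *Tlr8* were the receptors called higher in *Cd300a-/-* SiglecF lo neutrophils, and their stretches with the PU.1 core are printed here, 23 and 77 bases before the start. They lie on the minus strand at chr5:64933559-64933611 and chrX:167264371-167264436 of GRCm38.p6, and capitals mark the core, which in *Tlr8* reads on the other strand.
*Tlr1*: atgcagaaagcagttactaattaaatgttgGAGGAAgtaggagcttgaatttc
*Tlr8*: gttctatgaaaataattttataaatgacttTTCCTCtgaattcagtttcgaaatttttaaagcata

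With centring, *Tlr2* and *Tlr13* were called lower in SiglecF hi neutrophils of both genotypes. Without it *Tlr2* was called lower in WT mice alone, and was at −0.40 in *Cd300a-/-* mice. *Tlr13* was then called in neither genotype, at −0.07 in WT and −0.25 in *Cd300a-/-* mice. The *Tlr2* stretch lies on the minus strand at chr3:83841741-83841810, 172 bases before the start, and capitals mark the NF-κB motif, which there reads alike on both strands. The motif also matches from 173 bases before the start, overlapping the marked match, and from 8 bases before the start, which is not printed. The *Tlr13* stretch lies on the plus strand at chrX:106143162-106143227, 83 bases before the start, and capitals mark the PU.1 core.
*Tlr2*: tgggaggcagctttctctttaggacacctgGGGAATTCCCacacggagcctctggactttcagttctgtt
*Tlr13*: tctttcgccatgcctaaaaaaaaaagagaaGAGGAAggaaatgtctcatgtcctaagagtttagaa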

How the data were processed

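RNA of sorted neutrophils from 8 pooled hearts per library was poly(A)-selected, prepared with the NEBNext Ultra II kit and sequenced as read pairs on a NextSeq. The authors deposited, per gene, raw whole-number counts. The sources used here do not say if a count is a read or a pair of reads. If both reads of a pair were counted, the counting intervals given here are too narrow. The authors deposited RPKM, scaled by gene length and depth, and TPM from CLC Genomics Workbench, with equal totals in all libraries. A deposited signal, in a column named CPM, holds the counts over the library total times a factor. That factor was 1.097 (WT) and 1.154 (*Cd300a-/-*) for SiglecF lo, and 0.884 and 0.893 for SiglecF hi libraries. The inverse TMM factors computed here round to the same values. RPKM and this signal were not used here, but the TMM-scaled CPM used as an alternative is nearly the same quantity as this signal. The build GRCm39 is that of the submitters' processing notes, and aligner settings and annotation are not given in the sources used here.

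Samples were grouped by genotype and SiglecF gate from their titles. For the 6523 genes with a mean TPM over 10, the value is log2((TPM + 1) ratio) less its median over these genes, and values past 0.5 were called. Counting intervals combine the exact Poisson limits of each count at 95%. The depth sets their width. Alternatives were no centring, TMM-scaled CPM (edgeR 4.0.16, R 4.3.3), a pseudocount of 0.1, a mean TPM over 1, a TPM over 10 in both libraries compared and a log2 threshold of 1. The calculation was tested on simulated counts of 6513 genes for the genotype comparison in SiglecF lo neutrophils, where all 200 changed genes were recovered. With 1 library per group the variation between pools is unknown, so this recovery does not show that the calls would recur.

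The members, 8 lists of other pathway genes and 12 marker lists were chosen with earlier results of these data known. Named genes are the members, label checks, from each list up to 4 genes past 0.5 per comparison by size, the gene of highest TPM, markers at 0 counts and the 2 genes nearest in pattern to each member. *Ikbkb*, *Nfkbia*, *Tbk1* between subsets, *Lgmn*, *Ctsl*, *Ly6g*, *Acaa1a* and *Slc22a14*, and the untested or uncalled *Tlr3*, *Tlr5*, *Tlr11*, *Tlr12*, *Lbp* and *Unc93b1*, were named after their values were seen, as were the ratios within libraries and the sum of *Tlr1* and *Tlr6*. Promoters came from RefSeq and transcripts from GENCODE M21, which are on GRCm38. A comparison of the proteins was planned and not done. Python 3.11.15, numpy 2.4.6, pandas 2.3.3, scipy 1.17.1 and matplotlib 3.10.9 were used.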

Additional observations from a re-analysis of the deposited data

Results flagged for a closer look

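The genotype values of 3 endosomal receptor genes had opposite signs in the SiglecF lo and SiglecF hi neutrophils, with both 95% counting intervals off 0. With 1 library per group the difference between the subsets was not tested for any of them. For *Tlr8*, the centred log2 ratio of *Cd300a-/-* against WT was 1.09 in the SiglecF lo and −0.17 in the SiglecF hi subset, a difference of 1.26. The library that stood apart was WT SiglecF lo, at 16.0 TPM. For *Tlr7*, the next gene on the X chromosome, the values were 0.19 and −0.36, a difference of 0.55, and here the levels lay between 26.5 TPM in WT SiglecF lo and 64.0 TPM in WT SiglecF hi neutrophils. For *Tlr13* the values were 0.19 and −0.05, a difference of 0.23, and without centring the value in SiglecF hi neutrophils was −0.01 (−0.05 to 0.03), an interval that held 0. The intervals of *Tlr7* in SiglecF lo (0.03 to 0.35) and of *Tlr13* in SiglecF hi neutrophils (−0.09 to −0.004) ended close to 0. If both reads of a pair were counted, which is not known, wider intervals would apply and these could hold 0. Of the 6523 genes tested, 15.3% had the same combination of signs and intervals.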

How the results depend on the processing

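With 1 library per group no library could be left out, and no paired analysis was possible because the labels carry no replicate numbers and each comparison holds 1 library per group, with no test. A pseudocount of 0.1 kept all 40 values of the 10 genes in the 4 comparisons within their counting intervals, and TMM scaling kept 38, the exceptions being *Cd14* in *Cd300a-/-* against WT SiglecF hi neutrophils (0.28) and between the subsets of *Cd300a-/-* mice (−0.85). TMM scaling removes most of the shift of all genes, as centring does, so it does not check the centring. The filters on low values moved no count by over 1.5 times. With a TPM over 10 in both libraries, 1 call was lost in each subset comparison, *Tlr13* in WT (−0.50, just inside the threshold) and *Tlr8* in *Cd300a-/-* mice (−0.47). At a log2 threshold of 1, 1 gene was past the threshold between genotypes in SiglecF lo neutrophils (2 at 0.5), 1 between the subsets of WT mice (5 at 0.5) and 2 between those of *Cd300a-/-* mice (7 at 0.5). Without centring, 19 values lay within their intervals, and 6 changed sign, all between subsets. Of these 1 had been called, so that it counts as reversed, *Tlr8* in *Cd300a-/-* mice at 0.038. The others were *Myd88* in both genotypes and *Tlr1*, *Tlr4* and *Tlr6* in WT mice. Between the subsets of *Cd300a-/-* mice 3 genes were then past 0.5 (2 higher, 1 lower; with centring 0 and 7), and the median over the 10 genes was −0.13. Between those of WT mice 3 were higher and 1 was lower (with centring 2 and 3), and the median was 0.13. These shifts equal the all-gene median that centring subtracts. Of all genes tested, 56.6% (*Cd300a-/-*) and 51.9% (WT) were higher without centring, and 7.97% and 7.47% were lower.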
